A study of Mus musculus with 3 samples.

Results

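This account follows 10 genes of NF-kB signalling and of the acute phase response in nuclei of the mouse lacrimal gland. They are the chemokine genes Cxcl1 and Cxcl2, the cytokine genes Tnf and Il1b, the acute phase genes Lcn2, C3 and Cp, the transcription factor genes Nfkb2 and Relb, and Tnfaip3, an inhibitor of the pathway. The genes were taken by symbol from count tables of 32285 genes, and all 10 were present. Single-nucleus RNA libraries (10x Genomics 3' kit, version 3) had been made from 3 groups of mice, with 1 library per group. The tamsulosin library came from mice with dry eye induced by scopolamine and dry stress that also received tamsulosin, a blocker of alpha-1 adrenergic receptors. The scopolamine library came from mice with the same induced dry eye and no tamsulosin, and the control library from healthy mice. Scopolamine blocks muscarinic acetylcholine receptors, through which nerves drive tear secretion. The labels gave no strain, age, sex, dose, time or number of animals, and none of these was used here. The labels' protocol speaks of collecting nuclei positive for red fluorescent protein by sorting, and whether that step applied to these libraries was not settled.

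NF-kB is a family of dimeric transcription factors held in the cytoplasm until a signal releases them, which for the canonical arm comes from ligands such as tumour necrosis factor or interleukin 1. The canonical arm works mainly through Rela with Nfkb1, and the non-canonical arm through Nfkb2 with Relb. The canonical arm turns on chemokine genes, acute phase genes and the genes of its own inhibitors, so that the signal limits itself. The lacrimal gland is an exocrine gland whose acinar cells secrete proteins and water, whose duct cells modify the fluid, and whose myoepithelial cells contract around the acini.

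Sequences upstream of the chemokine genes are shown because both hold letters that NF-kB is known to bind, and those upstream of the acute phase genes because they hold letters that C/EBP factors are known to bind. RefSeq promoters of build GRCm38.p6 (mm10) were searched on both strands over the 250 bases before each annotated start, and 9 of the 10 genes had an entry. Relb had none. A strict form of the kappa B motif, GGG then any 2 bases then TTTCC, lay upstream of Cxcl1, Cxcl2, Nfkb2 and Tnfaip3, which is 4 of 9 genes. Counted by promoter, since some genes have several, it lay in 5 of their 13 promoters and in 464 of all 32851 promoters, or 1.41%. A looser form, GGG then any 5 bases then CC, which takes in the strict one, lay upstream of 8 of the 9 genes, in 11 of the 13 promoters and in 45.8% of all promoters. The letters TTGCNNAA, a C/EBP motif, lay upstream of Lcn2, C3 and Cp, in 3 of the 13 promoters and in 9.56% of all promoters. In all, 13 spellings were looked at, and a match is a description of letters, not of binding. Capitals mark the strict kappa B letters or the C/EBP letters on either strand. The first pair are the 250 bases before the start of Cxcl1 (chr5:90890995-90891244, plus strand) and of Cxcl2 (chr5:90903649-90903898, plus strand), neighbouring genes on chromosome 5:
Cxcl1: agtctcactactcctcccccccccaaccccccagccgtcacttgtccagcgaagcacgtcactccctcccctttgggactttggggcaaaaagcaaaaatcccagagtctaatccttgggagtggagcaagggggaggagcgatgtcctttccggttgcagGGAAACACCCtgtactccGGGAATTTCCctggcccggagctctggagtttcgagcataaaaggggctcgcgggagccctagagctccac
Cxcl2: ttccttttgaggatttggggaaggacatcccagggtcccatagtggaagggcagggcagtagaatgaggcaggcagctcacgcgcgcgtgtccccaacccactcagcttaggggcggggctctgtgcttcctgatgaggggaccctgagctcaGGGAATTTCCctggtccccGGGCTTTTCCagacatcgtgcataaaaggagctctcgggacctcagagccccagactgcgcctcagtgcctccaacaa
In Cxcl1 the kappa B letters lay 71 to 62 bases before the start and, on the other strand, 89 to 80 bases before it. In Cxcl2 they lay 97 to 88 and 78 to 69 bases before the start. Short windows around the motif are shown for the third start of Nfkb2 (chr19:46305695-46305724, plus strand) and the second start of Tnfaip3 (chr10:19015411-19015432, minus strand):
Nfkb2: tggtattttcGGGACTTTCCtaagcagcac
Tnfaip3: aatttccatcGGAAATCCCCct
The C/EBP windows belong to Lcn2 (chr2:32387936-32387965, minus strand), C3 (chr17:57228162-57228191, minus strand) and the second start of Cp (chr3:19957169-19957198, plus strand):
Lcn2: gcccttcctgTTGCTCAAccttgcacagtt
C3: ggaaactatgTTGCGAAAttttgggcagtc
Cp: ttagttactcTTTTGCAAcattaaattgtg

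The libraries held 12322 nuclei (tamsulosin), 10024 nuclei (scopolamine) and 7253 nuclei (control), of which 10864, 9205 and 6780 were kept in that order, with median counts of 3361, 1732 and 2318 unique molecular identifiers (UMIs) per nucleus. Classes were named from marker genes, and 7 classes held at least 100 nuclei in every library. The acinar-like class had 1902 tamsulosin, 5665 scopolamine and 4698 control nuclei, with median depths of 5291, 1193 and 2041.5 UMIs, and different clusters made up most of it in each library. Cluster 18 held 1831 of its tamsulosin nuclei, clusters 19 and 20 held 1852 and 3617 of its scopolamine nuclei, and clusters 2 and 3 held 1698 and 2985 of its control nuclei. A further group led by Kit, Odam and Car6 had no separate marker list and is called the Kit and Car6 nuclei. RNA of the 24 acinar markers, mostly secretory genes, made up 36.4%, 23.3% and 6.83% of UMIs in the tamsulosin, scopolamine and control myoepithelial-like nuclei, and its part in the results on the 10 genes was not tested. Median mitochondrial shares were 0.743%, 0.264% and 0.116% of UMIs in the tamsulosin, scopolamine and control libraries. Clusters with few genes per UMI held 2960 tamsulosin, 515 scopolamine and 61 control nuclei and were kept apart. Levels are UMIs of the gene per 1000000 UMIs of its class (CPM), with exact Poisson 95% intervals, and ratios have exact conditional 95% intervals. With 1 library per group these intervals cover counting error only, no difference between animals could be tested, and no p-value is given. They treat each UMI as independent, so they are too narrow where a few nuclei hold many UMIs of a gene. A gene is called past 1.5-fold where the ratio is at least 1.5 either way, its interval does not hold 1, and the libraries compared hold at least 30 UMIs together. The 3 comparisons share libraries with each other. A scarce gene can reach 30 UMIs through the library where it is high, in the background as among the 10 genes.

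Each gene was assigned to the class with the highest CPM, averaged with equal weight over the 3 libraries, among the 7 classes. Cxcl1 was highest in the Kit and Car6 nuclei, Tnf, Il1b and Relb in macrophage-like nuclei, Lcn2 and Cp in myoepithelial-like nuclei, C3 in fibroblast-like nuclei, and Nfkb2 and Tnfaip3 in T or NK-like nuclei. Cxcl2 was placed in the T or NK-like class on a single UMI, so its order was not resolved. The control library alone gave the same class for 7 of the 10 genes. Acute phase genes thus lay in myoepithelial-like, duct-like and fibroblast-like nuclei, Il1b lay in macrophage-like nuclei, and the remaining genes were spread over several classes.

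**Figure D1:**
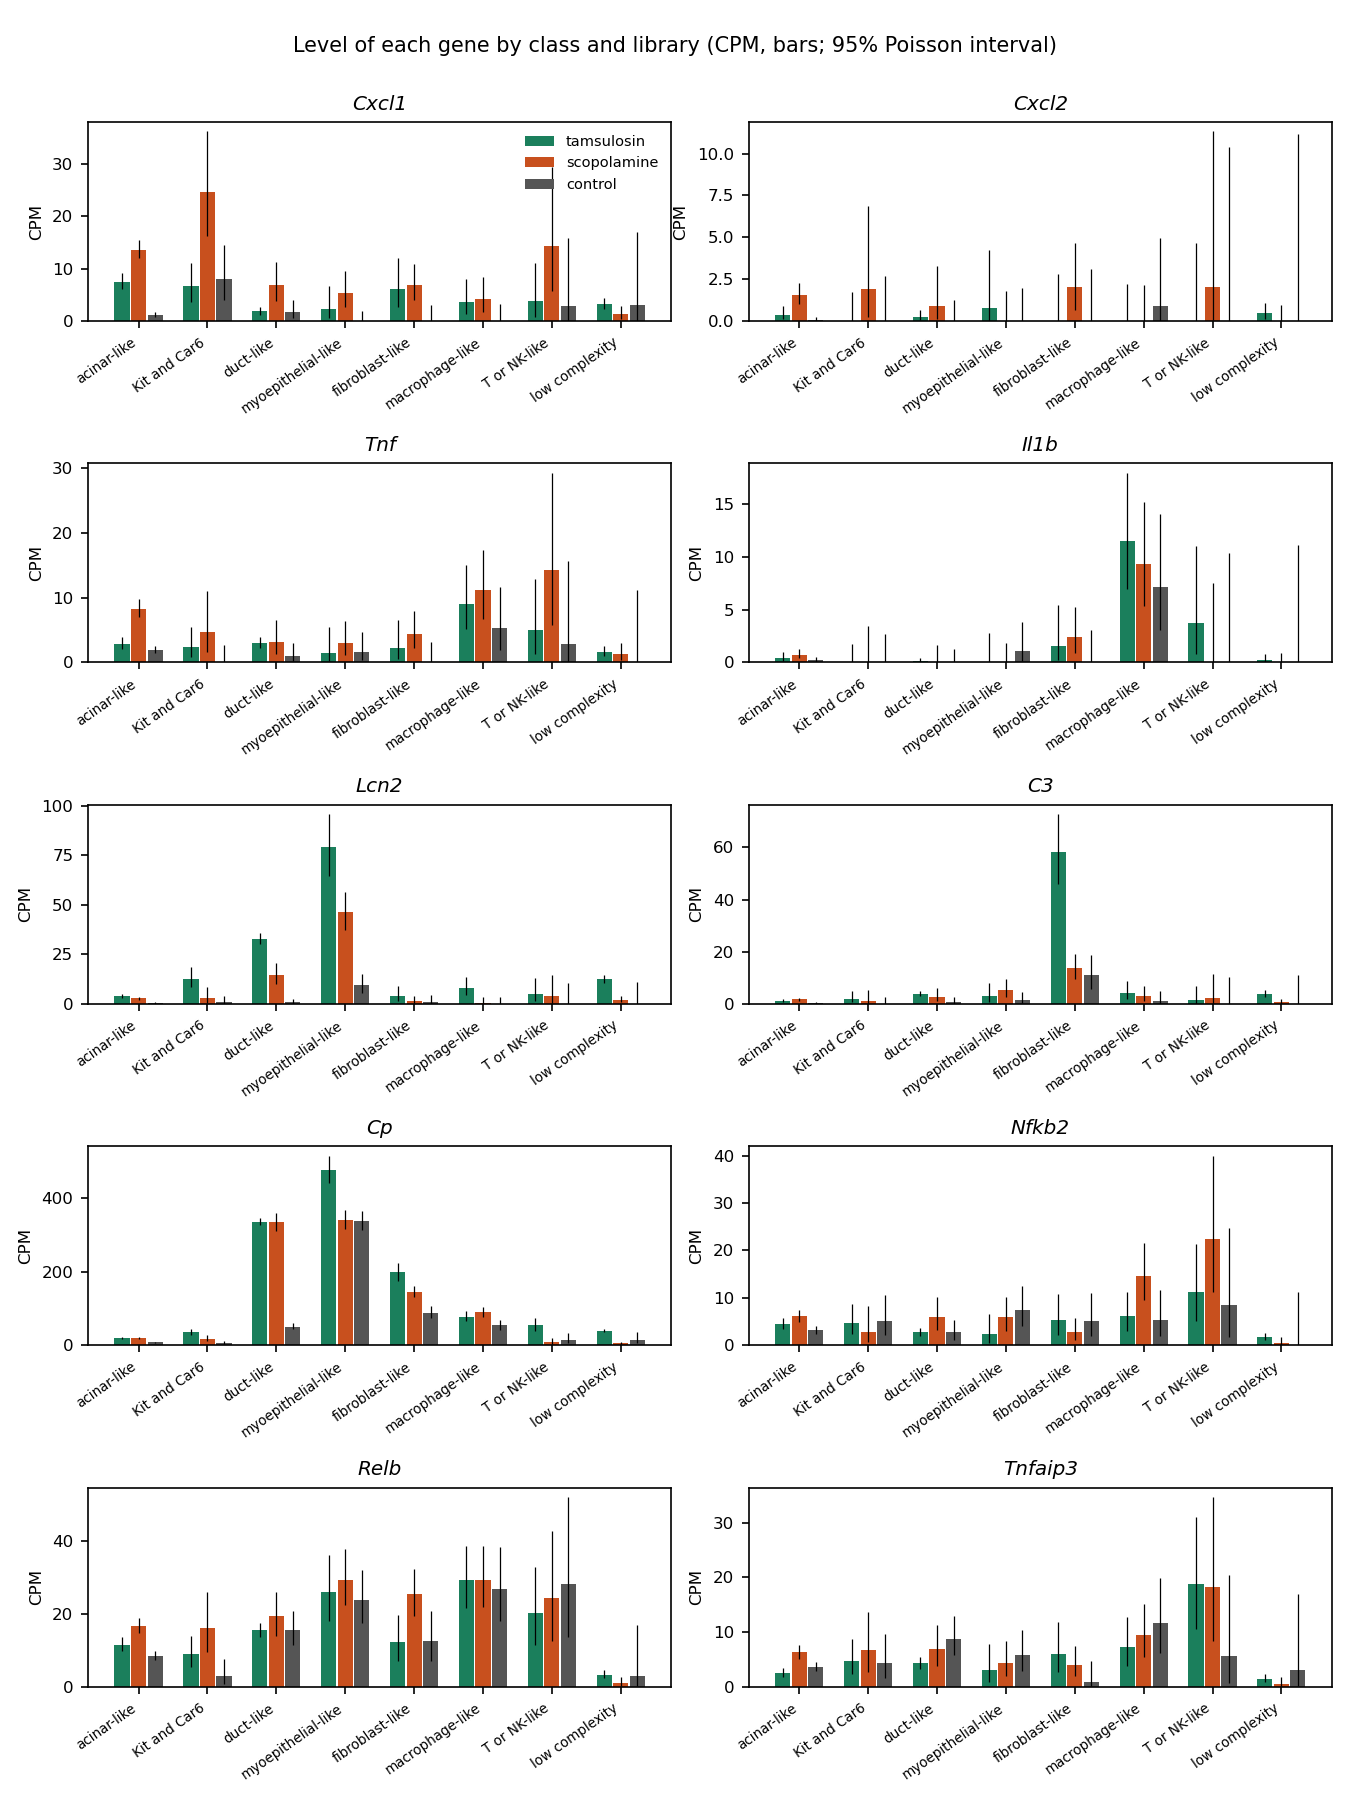
CPM (vertical axes, linear from 0, scaled per gene) of the 10 genes in 7 classes and in the nuclei of low complexity, with bars for the tamsulosin, scopolamine and control libraries and 95% Poisson intervals as lines. Lcn2 and Cp stand highest in myoepithelial-like nuclei, C3 in fibroblast-like nuclei at 58.2 CPM in the tamsulosin library, and Il1b in macrophage-like nuclei.

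In the class that holds each gene, scopolamine against control put 2 of 5 genes with enough UMIs past 1.5-fold higher and 0 lower, against 5.88% higher and 16.6% lower among all genes of those classes. The genes that were higher were Cxcl1 and Lcn2. Tamsulosin against scopolamine put 2 of 7 genes higher, C3 and Lcn2, and 1 lower, Cxcl1, where the background was 5.27% higher and 18.2% lower. Tamsulosin against control put 2 of 4 genes higher, C3 and Lcn2, and 0 lower, where the background was 7.67% higher and 35.1% lower. The median ratio over all genes lay below 1 in these classes, and in myoepithelial-like nuclei its log2 was -0.30 in the comparison of scopolamine with control, -0.41 in that of tamsulosin with scopolamine and -0.73 in that of tamsulosin with control. Relative to that median, the background in myoepithelial-like nuclei was 11.6% higher and 9.13% lower for scopolamine against control, against 5.75% higher and 23.1% lower without it.

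**Figure D2:**
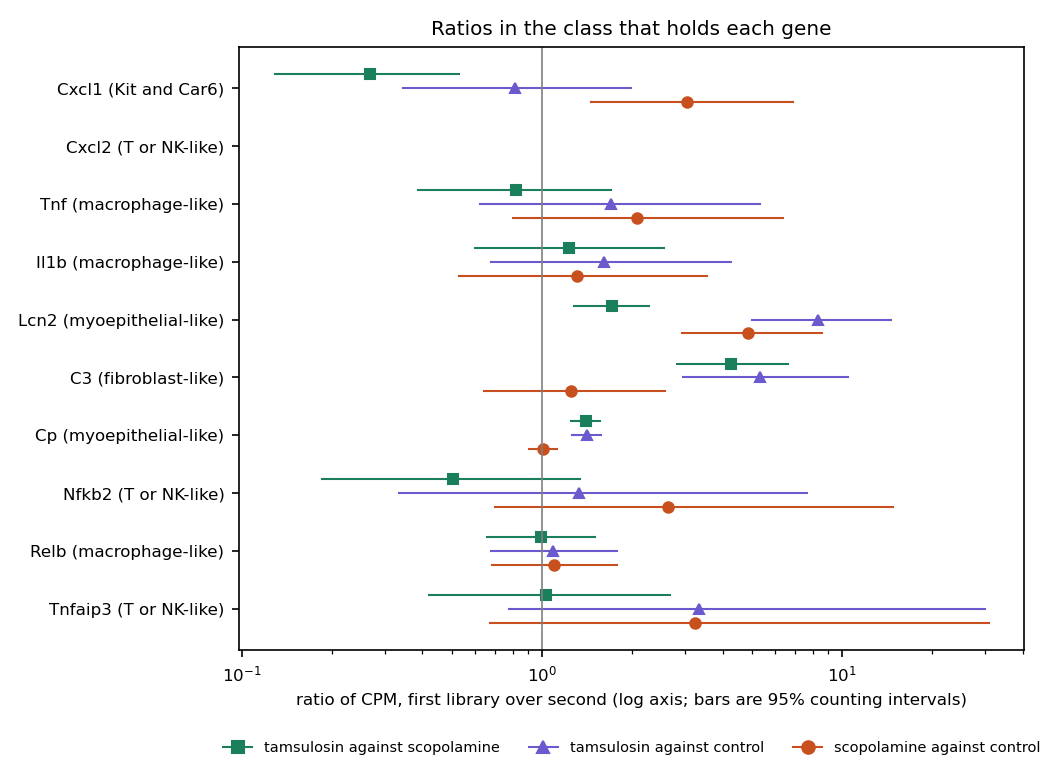
Ratio of CPM (horizontal log axis) for each gene in the class that holds it, with tamsulosin against scopolamine, tamsulosin against control and scopolamine against control as separate points and 95% counting intervals as lines. Cxcl2 has no point because a library was at 0 in that class, and Lcn2 has all 3 points to the right of 1, at 1.71, 8.31 and 4.87.

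Cxcl1 encodes a chemokine that attracts neutrophils through the receptor Cxcr2, and it maps to chr5:90891241-90893115 on the plus strand. In the Kit and Car6 nuclei its level was 6.58 CPM in the tamsulosin library (3.60 to 11.0, 14 UMIs), 24.7 CPM in the scopolamine library (16.1 to 36.1, 26 UMIs) and 8.07 CPM in the control library (4.03 to 14.4, 11 UMIs). The scopolamine library stood above the others and its interval did not overlap theirs. The ratio was 3.06 for scopolamine against control (1.46 to 6.85) and 0.267 for tamsulosin against scopolamine (0.129 to 0.530), both past 1.5-fold, while tamsulosin against control gave 0.815 (0.344 to 1.98). Among all genes of these nuclei 4.46% were higher and 19.7% lower for scopolamine against control, 3.84% and 21.7% for tamsulosin against scopolamine, and 6.43% and 51.8% for tamsulosin against control. Clusters 25, 22 and 0 held most of these nuclei in the tamsulosin, scopolamine and control libraries. Few nuclei carried the counts, since 3 scopolamine nuclei held 20 of the 26 UMIs. T or NK-like nuclei, at 14.2 CPM in the scopolamine library (5.72 to 29.3), could not be ranked apart from them. The share of Kit and Car6 nuclei with a Cxcl1 UMI was 1.71% in the tamsulosin, 1.96% in the scopolamine and 1.59% in the control library. The call for scopolamine against control was kept under 4 of 8 alternative settings, and that for tamsulosin against scopolamine under 7 of 8.

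Acinar-like nuclei held more Cxcl1 UMIs than any other class, namely 47.1% of them in the tamsulosin, 68.9% in the scopolamine and 55.8% in the control library. There the level was 7.44 CPM in the tamsulosin library (6.04 to 9.08, 97 UMIs), 13.6 CPM in the scopolamine library (11.9 to 15.5, 230 UMIs) and 1.10 CPM in the control library (0.706 to 1.64, 24 UMIs). The 3 intervals did not overlap. The ratio was 12.4 for scopolamine against control (8.11 to 19.7), 0.546 for tamsulosin against scopolamine (0.426 to 0.695) and 6.76 for tamsulosin against control (4.29 to 11.0). When nuclei were thinned to 1000 UMIs the ratio of tamsulosin against scopolamine was 1.01 (0.590 to 1.68), so that this call ended, whereas scopolamine against control was 10.7 (4.34 to 34.3). Within clusters, the level was 7.08 CPM in cluster 18 of the tamsulosin library, 15.9 and 8.25 CPM in clusters 19 and 20 of the scopolamine library, and 1.15 and 0.974 CPM in clusters 2 and 3 of the control library. Only cluster 19 (13.7 to 18.4) lay above cluster 18 (5.67 to 8.74) beyond counting error, since the interval of cluster 20 (5.84 to 11.3) overlapped that of cluster 18. All of these lay above both control clusters. The 182 UMIs of cluster 19 came from 90 nuclei and the 87 of cluster 18 from 40, which the intervals do not take into account.

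Cxcl1 UMIs were gathered in a small share of acinar-like nuclei, namely 2.26% in the tamsulosin, 2.40% in the scopolamine and 0.404% in the control library. After thinning, these shares were 0.631%, 1.00% and 0.106% in the same order. In the scopolamine library 22 acinar-like nuclei with at least 3 UMIs held 106 of the 230 UMIs, and a single nucleus held up to 12 UMIs in the tamsulosin, 10 in the scopolamine and 5 in the control library. The T or NK-like nuclei, taken as cells that should make little of this chemokine, had 3.77 CPM from 3 UMIs in the tamsulosin, 14.2 CPM from 7 UMIs in the scopolamine and 2.82 CPM from 1 UMI in the control library. Their intervals overlapped those of the acinar-like nuclei in every library, with a median depth of 2574, 1676 and 2215 UMIs in the same order. The share of T or NK-like nuclei with a Cxcl1 UMI was 1.41%, 2.07% and 0.877%, and after thinning the scopolamine share was 1.05%, so the shares of acinar-like nuclei did not stand above this background. Myoepithelial-like nuclei were lower by level, at 2.28 CPM in the tamsulosin and 5.36 CPM in the scopolamine library (2.68 to 9.59), with 0 UMIs in the control library. The part of free RNA in these Cxcl1 UMIs was not tested. Fibroblast-like nuclei had 8 Cxcl1 UMIs in the tamsulosin and 17 in the scopolamine library, and 0 in the control library, which allows up to 2.51 CPM there.

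Cxcl2, the neighbouring chemokine gene with the same receptor, was scarce, with 15 UMIs in the tamsulosin, 36 in the scopolamine and 2 in the control library. Acinar-like nuclei held 5 UMIs (0.384 CPM) in the tamsulosin library, 26 UMIs (1.54 CPM) in the scopolamine library and 1 UMI (0.0459 CPM) in the control library. Tamsulosin against scopolamine gave 0.249 in that class (0.0747 to 0.659), past 1.5-fold. The ratio of scopolamine against control was 33.6, with an interval of 5.51 to 1376, on fewer than the 30 UMIs asked for a call. These 26 scopolamine UMIs came from 15 nuclei.

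Tnf encodes tumour necrosis factor, a ligand that activates the canonical arm, and maps to chr17:35199381-35202007 on the minus strand. In macrophage-like nuclei its level was 9.10 CPM in the tamsulosin library (5.09 to 15.01, 15 UMIs), 11.1 CPM in the scopolamine library (6.70 to 17.4, 19 UMIs) and 5.35 CPM in the control library (1.96 to 11.6, 6 UMIs). All 3 intervals overlapped, and T or NK-like nuclei, at 5.02, 14.2 and 2.82 CPM in the same order, could not be ranked apart from macrophage-like nuclei. Tamsulosin against scopolamine gave 0.817 (0.387 to 1.70) and scopolamine against control 2.08 (0.799 to 6.36), neither past 1.5-fold.

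Acinar-like nuclei held 37 Tnf UMIs in the tamsulosin library, where duct-like nuclei held 47, and they held most of the Tnf UMIs elsewhere, 140 in the scopolamine and 42 in the control library. Their level was 2.84 CPM in the tamsulosin library (1.999 to 3.91), 8.29 CPM in the scopolamine library (6.98 to 9.79) and 1.93 CPM in the control library (1.39 to 2.61). The scopolamine library was set apart, and the tamsulosin and control intervals overlapped. Scopolamine against control gave 4.30 (3.03 to 6.23) and tamsulosin against scopolamine 0.342 (0.232 to 0.495), both past 1.5-fold, and tamsulosin against control gave 1.47 (0.920 to 2.35). Thinning left 2.18 (1.18 to 4.19) for scopolamine against control and 0.355 (0.109 to 0.904) for tamsulosin against scopolamine. By cluster the level was 2.61 CPM in cluster 18 of the tamsulosin library, 9.60 and 5.65 CPM in clusters 19 and 20 of the scopolamine library, and 1.60 and 2.76 CPM in clusters 2 and 3 of the control library. Myoepithelial-like nuclei, which should lack Tnf, had 1.52 CPM in the tamsulosin, 2.92 CPM in the scopolamine (1.07 to 6.36) and 1.58 CPM in the control library, at median depths of 2992, 2838 and 3435 UMIs. By level only the scopolamine acinar-like nuclei stood above them beyond counting error. No share did, at 1.74%, 1.96% and 0.830% in acinar-like against 0.608%, 1.44% and 1.02% in myoepithelial-like nuclei, whose intervals overlapped. In the scopolamine library fibroblast-like nuclei were at 4.41 CPM (2.20 to 7.88) and cluster 22 of the Kit and Car6 nuclei at 4.87 CPM (1.58 to 11.4). These intervals overlapped the acinar-like one, so acinar-like Tnf was not set apart from those nuclei. The part of free RNA in it was not tested. The 14 macrophage markers, summed over acinar-like nuclei, were lower in both treated libraries than in the control library, at 68.4 CPM in the tamsulosin, 124 CPM in the scopolamine and 169 CPM in the control library, while the T or NK markers stood at 6.68, 16.4 and 14.6 CPM. Their part in the Tnf values was not tested. Neutrophil markers were at 2.99, 2.67 and 2.02 CPM in the same nuclei, with Ly6g, Retnlg and Cd177 at 0 in all 3 libraries. Of the 12 markers, 5 had a UMI in the tamsulosin, 9 in the scopolamine and 5 in the control library. S100a8, S100a9, Mmp8 and Ngp were at 0 in the control library and were seen in the scopolamine library.

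Il1b encodes interleukin 1 beta, a ligand of innate immune cells that is also a target of the pathway, and maps to chr2:129364570-129371139 on the minus strand. Macrophage-like nuclei held 48.7% of its UMIs in the tamsulosin, 47.1% in the scopolamine and 53.3% in the control library. The level in that class was 11.5 CPM in the tamsulosin library (6.94 to 17.998, 19 UMIs), 9.37 CPM in the scopolamine library (5.36 to 15.2, 16 UMIs) and 7.13 CPM in the control library (3.08 to 14.1, 8 UMIs). No pair of libraries was separated, since tamsulosin against scopolamine gave 1.23 (0.599 to 2.56), tamsulosin against control 1.62 (0.675 to 4.27) and scopolamine against control 1.31 (0.531 to 3.55). At 15 to 39 UMIs per library, differences of this size were not detectable. The Kit and Car6 nuclei had no Il1b UMI in any library.

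**Figure D3:**
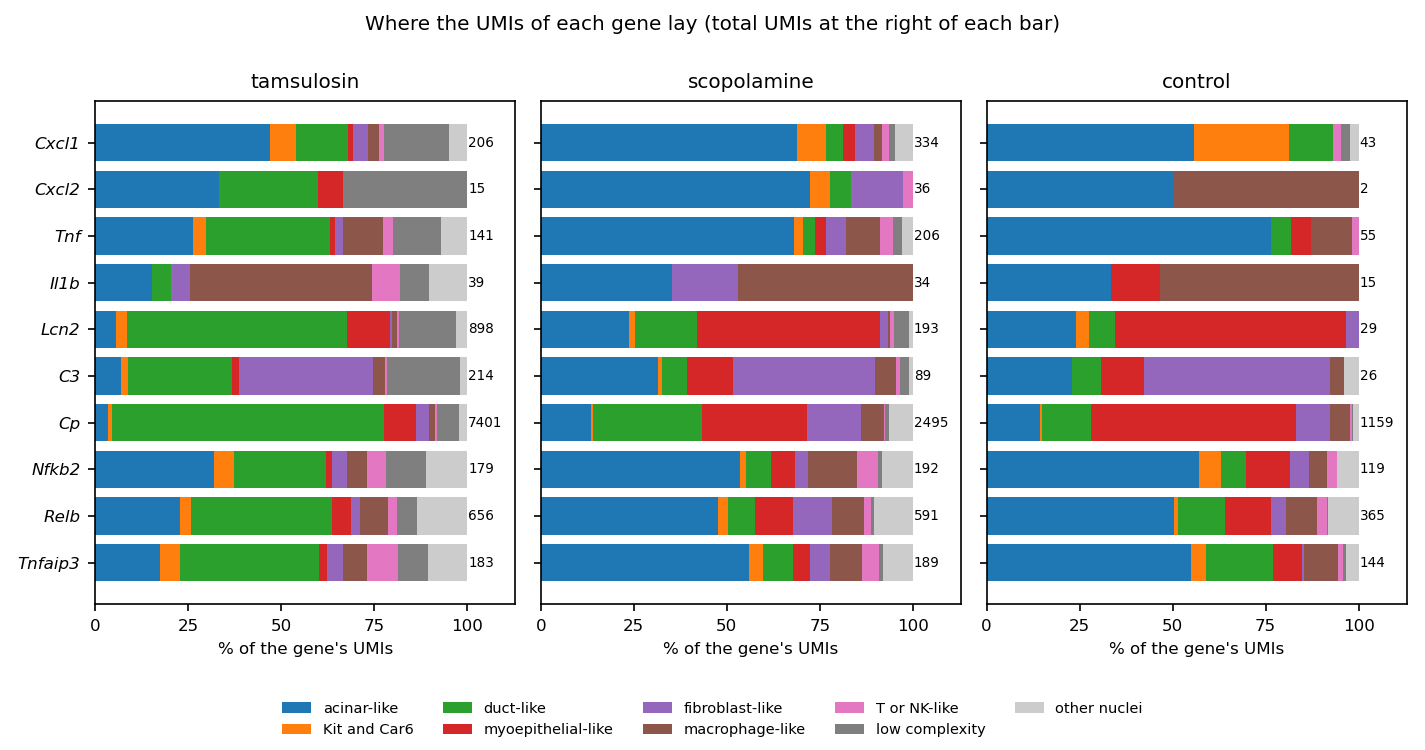
Share of each gene's UMIs (horizontal axes, percent) that lay in each class, for the tamsulosin, scopolamine and control libraries from left to right, with the total number of UMIs beside each bar. Duct-like nuclei held 58.9% of Lcn2 UMIs in the tamsulosin library, where this class had more nuclei, and 6.90% in the control library.

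Lcn2 encodes lipocalin 2, which binds bacterial iron carriers and belongs to the acute phase response, and it maps to chr2:32384633-32388252 on the minus strand. In myoepithelial-like nuclei its level was 79.0 CPM in the tamsulosin library (64.6 to 95.7, 104 UMIs), 46.3 CPM in the scopolamine library (37.4 to 56.6, 95 UMIs) and 9.51 CPM in the control library (5.64 to 15.03, 18 UMIs). The 3 intervals did not overlap. Scopolamine against control gave 4.87 (2.92 to 8.56), tamsulosin against scopolamine 1.71 (1.28 to 2.28) and tamsulosin against control 8.31 (5.01 to 14.6), all past 1.5-fold. Relative to the median gene of the class these ratios were 5.98, 2.26 and 13.8 in the same order. The background of the class for the last pair was 3.74% higher and 27.4% lower (tamsulosin against scopolamine) and 6.63% higher and 50.3% lower (tamsulosin against control). The gene was seen in 62 of 329 tamsulosin, 62 of 418 scopolamine and 17 of 295 control nuclei, which is 18.8%, 14.8% and 5.76%, and at equal depth 7.60%, 5.05% and 1.69%. T or NK-like nuclei, which should lack it, had 4 UMIs (5.02 CPM), 2 UMIs (4.07 CPM) and 0 UMIs in the same order. Other groups held more in the tamsulosin library. B or plasma-like nuclei were at 17.8 CPM (8.12 to 33.7) and salivary-type nuclei at 19.9 CPM (10.6 to 34.0). Low-complexity cluster 21 was at 22.4 CPM (18.5 to 26.8). All lay under the myoepithelial-like level there, and the part of free RNA in the Lcn2 differences was not tested. The call of scopolamine against control was kept under 7 of 8 alternative settings. That of tamsulosin against scopolamine was kept under 5 of 8, and it ended with the 10 genes and the pathway lists among the clustering genes, at 1.28 (0.954 to 1.71), with finer clusters, at 1.28 (0.959 to 1.72), and with thinned nuclei, at 1.48 (0.825 to 2.66).

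Duct-like nuclei also carried Lcn2, at 32.9 CPM in the tamsulosin library (30.2 to 35.8, 529 UMIs), 14.7 CPM in the scopolamine library (10.0 to 20.7, 32 UMIs) and 0.674 CPM in the control library (0.0817 to 2.44, 2 UMIs). Tamsulosin against scopolamine gave 2.24 (1.57 to 3.32), and the tamsulosin library was above the scopolamine library in both shared duct-like clusters, at 35.5 and 13.8 CPM in cluster 13 and at 30.4 and 17.6 CPM in cluster 14. The duct-like background there was 4.11% higher and 10.3% lower. In the tamsulosin library the intervals of B or plasma-like and of salivary-type nuclei, given above, overlapped that of duct-like nuclei. The ratio was 21.7 for scopolamine against control (5.55 to 187), where the background was 11.4% higher and 19.2% lower, and 48.8 for tamsulosin against control (13.4 to 404), where it was 13.7% higher and 28.4% lower. Both rest on cluster 10, which held 403 of the 442 control nuclei of the class, came from the control library alone and met the duct markers only narrowly. Without it 1 control UMI was left, and the ratios were 2.37 (0.395 to 96.4) for scopolamine against control and 5.31 (0.949 to 210) for tamsulosin against control, neither past 1.5-fold. In acinar-like nuclei Lcn2 was at 3.91 CPM in the tamsulosin, 2.73 CPM in the scopolamine and 0.321 CPM in the control library, no more than in T or NK-like nuclei of the tamsulosin and scopolamine libraries, and these levels are read as background.

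C3 encodes complement component 3, the protein on which all routes of complement activation meet, and maps to chr17:57203970-57228136 on the minus strand. In fibroblast-like nuclei its level was 58.2 CPM in the tamsulosin library (45.9 to 72.8, 77 UMIs), 13.6 CPM in the scopolamine library (9.43 to 19.03, 34 UMIs) and 10.9 CPM in the control library (5.80 to 18.6, 13 UMIs). The tamsulosin library stood apart, and the scopolamine and control intervals overlapped. Tamsulosin against scopolamine gave 4.27 (2.82 to 6.60) and tamsulosin against control 5.34 (2.95 to 10.5), both past 1.5-fold, and scopolamine against control gave 1.2497 (0.643 to 2.58). Relative to the median gene of the class, whose log2 ratio was -0.20 and -0.31 in the tamsulosin comparisons, they were 4.89 and 6.62. For tamsulosin against control 9.05% of all genes of the class were higher and 24.4% lower. The gene was seen in 39 tamsulosin, 24 scopolamine and 9 control nuclei, which is 13%, 6.19% and 3.60% of the class. T or NK-like nuclei, which should lack C3, had 1.26 CPM in the tamsulosin and 2.03 CPM in the scopolamine library, from 1 UMI each, and 0 UMIs in the control library. A few nuclei weighed on the tamsulosin value, since 6 of them held 39 of its 77 UMIs. The call of tamsulosin against scopolamine was kept under all 8 alternative settings tried, with a log2 ratio of 1.47 to 2.29. The 13 fibroblast markers summed to 0.479% of UMIs in the tamsulosin, 0.237% in the scopolamine and 0.269% in the control fibroblast-like nuclei, and their part in the C3 difference was not tested.

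Other complement genes of the fibroblast-like nuclei are given from a list of 19, of which 18 were in the tables and 9 had enough UMIs. Tamsulosin against scopolamine put 6 of them past 1.5-fold higher and 0 lower, where the background of the class was 8.86% higher and 13.5% lower, and the median ratio was 1.81 over the list against 0.873 over the class. Among them were C1ra, C1s1 and C4b, which encode proteins of the classical route, and Cd55 and Serping1, which encode regulators that restrain complement. C1s1, a protease of the first complement complex, was at 122 CPM in the tamsulosin and 43.3 CPM in the scopolamine library, a ratio of 2.83 (2.21 to 3.65). C1ra, its partner protease, was at 43.1 CPM in the tamsulosin and 16.8 CPM in the scopolamine library, a ratio of 2.56 (1.69 to 3.91). Scopolamine against control gave no such direction, with 1 of 9 higher, C4b, and 2 lower, among them C1s1, where the background was 6.96% higher and 10.5% lower.

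Cp encodes ceruloplasmin, a copper-carrying ferroxidase of the acute phase, and maps to chr3:19957054-20009145 on the plus strand. In myoepithelial-like nuclei its level was 478 CPM in the tamsulosin library (441 to 517, 629 UMIs), 342 CPM in the scopolamine library (317 to 368, 701 UMIs) and 339 CPM in the control library (313 to 366, 641 UMIs). The tamsulosin library was higher beyond counting error, and the intervals of the other libraries overlapped. Ratios were 1.01 for scopolamine against control (0.905 to 1.12), 1.40 for tamsulosin against scopolamine (1.255 to 1.56) and 1.41 for tamsulosin against control (1.26 to 1.58), none past 1.5-fold. T or NK-like nuclei had Cp at 54.0 CPM in the tamsulosin, 8.13 CPM in the scopolamine and 14.1 CPM in the control library, well under the myoepithelial-like level in each. Relative to the median gene of the class the last ratios were 1.85 and 2.34, so the call there depended on the scaling. In fibroblast-like nuclei Cp was at 200 CPM in the tamsulosin (176 to 225), 146 CPM in the scopolamine (131 to 162) and 88.8 CPM in the control library (72.7 to 107). The 3 intervals did not overlap there, and the ratios were 1.64 for scopolamine against control (1.32 to 2.06), 1.37 for tamsulosin against scopolamine (1.16 to 1.61) and 2.25 for tamsulosin against control (1.79 to 2.84). In T or NK-like nuclei Cp was also past 1.5-fold higher in tamsulosin against scopolamine, at 6.64 (2.41 to 25.5), and against control, at 3.83 (1.52 to 12.4). The part of background in the fibroblast-like differences was not tested.

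Duct-like nuclei had Cp at 337 CPM in the tamsulosin (328 to 346, 5418 UMIs), 335 CPM in the scopolamine (311 to 360, 730 UMIs) and 50.6 CPM in the control library (42.8 to 59.4, 150 UMIs). The scopolamine against control ratio of 6.61 (5.54 to 7.94) came with cluster 10 of the control library, where Cp was at 39.2 CPM. Without that cluster it was 1.35 (0.982 to 1.91), and tamsulosin against control was 1.36 (0.998 to 1.91) in place of 6.67 (5.67 to 7.89). Between the tamsulosin and scopolamine libraries the clusters of the class differed from each other by more than the libraries did. Within clusters 13 and 14, though, the tamsulosin library was higher beyond counting error. Cluster 13 had 486 CPM in the tamsulosin (471 to 502) and 413 CPM in the scopolamine library (378 to 451). Cluster 14 had 196 CPM in the tamsulosin (186 to 205) and 110 CPM in the scopolamine library (87.2 to 137). Cluster 17 had 656 CPM in the scopolamine and 385 CPM in the control library. The close levels of the whole class thus joined clusters in unlike proportions. Clusters 13 and 14 held 1422 and 1995 tamsulosin nuclei, and 337 and 254 scopolamine nuclei. The endothelial-like class, too small to compare, had 196, 190 and 69.9 CPM in the tamsulosin, scopolamine and control libraries, from 52, 80 and 13 UMIs.

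Most myoepithelial-like nuclei with an Lcn2 UMI also had a Cp UMI, as did most nuclei of the class. Of the nuclei with an Lcn2 UMI, 48 of 62 also had a Cp UMI in the tamsulosin library, 48 of 62 in the scopolamine library and 15 of 17 in the control library. Cp, with or without Lcn2, was seen in 69.3% of the class in the tamsulosin, 62.2% in the scopolamine and 71.9% in the control library. The joint detection is thus not read as a link between the genes. In the same class Osmr, a receptor chain for oncostatin M, was at 53.6 CPM in the scopolamine and 27.5 CPM in the control library (ratio 1.95, 1.39 to 2.77). It was at 79.0 CPM in the tamsulosin library, a ratio of 2.88 against control (2.04 to 4.09). Steap4, a metalloreductase gene induced by inflammation, was at 66.9 CPM in the tamsulosin and 37.5 CPM in the scopolamine library (ratio 1.78, 1.30 to 2.45). More pathway genes of these nuclei were lower than higher, as was also true of all genes of the class. Scopolamine against control put 3 of 71 higher and 10 lower, where the background was 5.75% higher and 23.1% lower, and Traf2, an adaptor gene, had a ratio of 0.461 (0.279 to 0.745). Tamsulosin against scopolamine put 4 of 66 higher and 16 lower, where the background was 3.74% higher and 27.4% lower. The lowest ratios of that comparison were those of Tsc22d3, a glucocorticoid-induced gene, at 0.2399 (0.110 to 0.470), Malt1, a paracaspase gene of the canonical arm, at 0.340 (0.248 to 0.457), and Il1rap, a chain of the interleukin 1 receptor, at 0.400 (0.318 to 0.499).

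Nfkb2 encodes p100, the precursor of the p52 subunit, and maps to chr19:46304320-46312385 on the plus strand. In T or NK-like nuclei it was at 11.3 CPM in the tamsulosin (9 UMIs), 22.4 CPM in the scopolamine (11 UMIs) and 8.47 CPM in the control library (3 UMIs), with overlapping intervals. In macrophage-like nuclei it was at 6.07 CPM in the tamsulosin (2.91 to 11.2, 10 UMIs), 14.6 CPM in the scopolamine (9.48 to 21.6, 25 UMIs) and 5.35 CPM in the control library (1.96 to 11.6, 6 UMIs). Scopolamine was highest in both classes. In macrophage-like nuclei tamsulosin against scopolamine gave 0.414 (0.178 to 0.893), past 1.5-fold, but 0.476 and no longer past it relative to the median gene of the class, and scopolamine against control gave 2.74 (1.10 to 8.16), past 1.5-fold on 31 UMIs. Nfkbia, the IkB alpha inhibitor and a direct target of NF-kB, was at 14.0 CPM in the tamsulosin, 36.3 CPM in the scopolamine and 41.0 CPM in the control macrophage-like nuclei. It was lower in the tamsulosin library than in either of the others, with ratios of 0.384 against scopolamine (0.227 to 0.629) and 0.340 against control (0.197 to 0.573), and it was not higher in scopolamine than in control.

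Relb encodes the partner of p52, and maps to chr7:19606217-19629438 on the minus strand. Its highest level of any class lay in dendritic-like nuclei, at 422 CPM in the tamsulosin (264 to 638, 8 of 16 nuclei), 613 CPM in the scopolamine (427 to 853, 12 of 19 nuclei) and 577 CPM in the control library (352 to 891, 8 of 9 nuclei). That class held too few nuclei to compare libraries, and its intervals overlapped. Macrophage-like nuclei had 29.1 CPM in the tamsulosin (21.5 to 38.6), 29.3 CPM in the scopolamine (21.7 to 38.6) and 26.7 CPM in the control library (18.05 to 38.2). The 3 libraries were close there, with 0.994 for tamsulosin against scopolamine (0.655 to 1.51) and 1.10 for scopolamine against control (0.683 to 1.78). Myoepithelial-like and T or NK-like nuclei, at 20.1 to 29.2 CPM, could not be ranked apart from them. In fibroblast-like nuclei Relb was at 12.1 CPM in the tamsulosin (16 UMIs), 25.2 CPM in the scopolamine (63 UMIs) and 12.6 CPM in the control library (15 UMIs). Scopolamine against control gave 2.01 (1.13 to 3.80) and tamsulosin against scopolamine 0.479 (0.258 to 0.840) there, both past 1.5-fold.

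Tnfaip3 encodes A20, a ubiquitin-editing enzyme that shuts the canonical arm down and is itself a target of it, and maps to chr10:19000910-19015657 on the minus strand. In T or NK-like nuclei it was at 18.8 CPM in the tamsulosin (10.5 to 31.1, 15 UMIs), 18.3 CPM in the scopolamine (8.37 to 34.7, 9 UMIs) and 5.65 CPM in the control library (0.684 to 20.4, 2 UMIs). These intervals overlapped, and scopolamine against control gave 3.24 (0.671 to 30.8). In macrophage-like nuclei it was at 7.28, 9.37 and 11.6 CPM in the tamsulosin, scopolamine and control libraries. In duct-like nuclei it was at 4.23 CPM in the tamsulosin (68 UMIs), 6.87 CPM in the scopolamine (15 UMIs) and 8.77 CPM in the control library (26 UMIs), and tamsulosin against control gave 0.483 (0.303 to 0.790), past 1.5-fold lower. All 26 of those control UMIs lay in cluster 10, and the other control nuclei of the class had 0, so no ratio to control could be given without that cluster.

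In acinar-like nuclei, which held most of the UMIs of Cxcl1 and Tnf in the scopolamine library, scopolamine against control put 8 of 8 genes with enough UMIs past 1.5-fold higher, where the background was 13% higher and 16.3% lower. The log2 of the median ratio was -0.19, and relative to it the background was 17.6% higher and 7.96% lower. Among the 8 genes, Cxcl1, Lcn2 and C3 had 24, 7 and 6 control UMIs and reached 30 UMIs only with the scopolamine library. Apart from Cxcl1 and Tnf, already given, Relb had a ratio of 1.97 (1.63 to 2.39), Nfkb2 1.95 (1.43 to 2.70) and Tnfaip3 1.73 (1.28 to 2.35). Levels of Relb were 11.5 CPM in the tamsulosin, 16.6 CPM in the scopolamine and 8.45 CPM in the control library. Those of Nfkb2 were 4.37, 6.10 and 3.12 CPM, and those of Tnfaip3 2.46, 6.28 and 3.63 CPM, in the same order. The scopolamine library was highest for each of these regulators. In T or NK-like nuclei of that library Relb, Nfkb2 and Tnfaip3 were higher, at 24.4, 22.4 and 18.3 CPM. The part of free RNA in the acinar-like levels of these regulators was not tested. The remaining 3 genes were Lcn2, at 8.48 (3.80 to 22.3), C3, at 6.02 (2.45 to 17.8), and Cp, at 2.61 (2.16 to 3.17). Over the whole class none of these 3 lay above its level in T or NK-like nuclei by more than counting error in any library. The acinar-like counts of Lcn2 and C3 are therefore read as background. For Cp the clusters differed, with 11.8 CPM in cluster 19 and 40.8 CPM in cluster 20 (35.2 to 47.1) of the scopolamine library. Cluster 20 lay above the T or NK-like nuclei of that library, at 8.13 CPM (2.22 to 20.8). The part of background in acinar-like Cp was not tested. With nuclei thinned to 1000 UMIs, 3 genes were past 1.5-fold higher.

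Tamsulosin against scopolamine put 0 of 9 genes higher and 4 lower in acinar-like nuclei, Cxcl1, Cxcl2, Tnf and Tnfaip3, where the background was 2.44% higher and 8.40% lower. Cxcl2 reached 30 UMIs with 5 in the tamsulosin and 26 in the scopolamine library. Tnfaip3 had a ratio of 0.391 (0.255 to 0.585). Thinning left only Tnf lower. Relb at 0.691 (0.563 to 0.846) and Nfkb2 at 0.717 (0.509 to 1.00) did not pass 1.5-fold. Tamsulosin against control put 3 of 7 genes higher, Cxcl1, Lcn2 and Cp, and 0 lower, where the background was 10.9% higher and 26.6% lower. Relative to the median ratio, with a log2 of -0.34, that background was 17.2% higher and 9.49% lower, and 6 of the genes were past 1.5-fold higher.

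**Figure D4:**
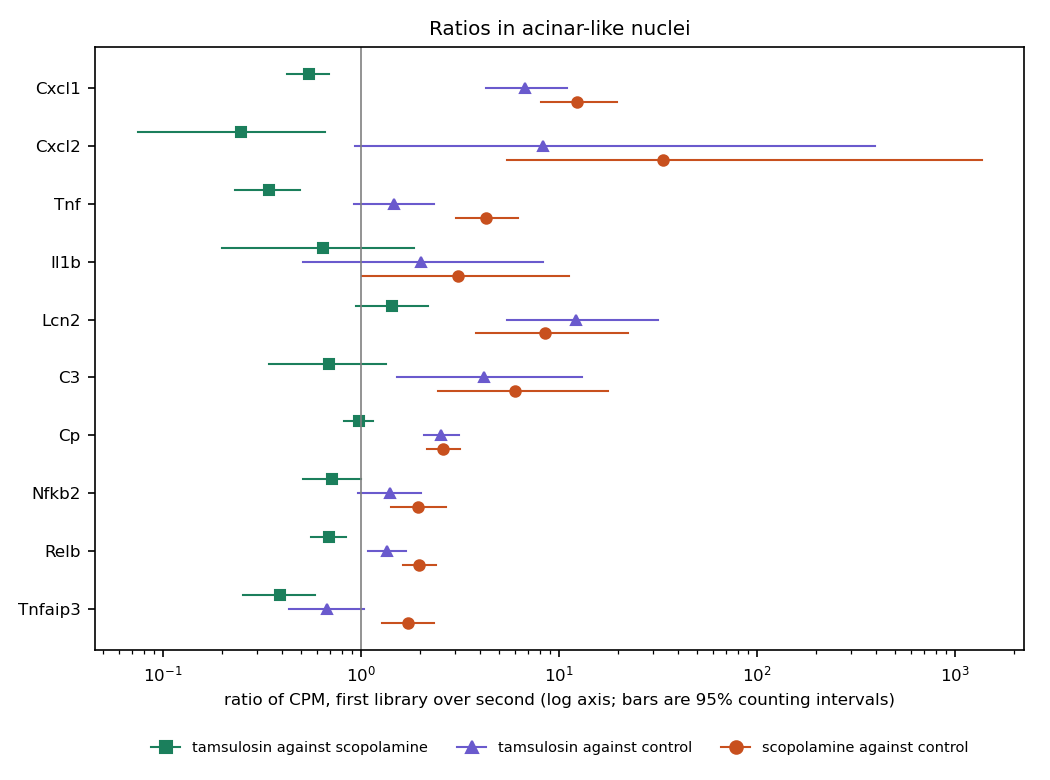
Ratio of CPM (horizontal log axis) for the 10 genes in acinar-like nuclei, with tamsulosin against scopolamine, tamsulosin against control and scopolamine against control as separate points and 95% counting intervals as lines. Scopolamine against control lies to the right of 1 for each gene, at 12.4 for Cxcl1 and 1.73 for Tnfaip3, and Cxcl2 and Il1b held fewer than 30 UMIs in some comparisons.

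The acinar-like nuclei in which these genes were seen overlapped in part. In the scopolamine library 136 nuclei had a Cxcl1 UMI and 111 a Tnf UMI, and 27 had both, out of 5665. Of the 206 nuclei with Relb, 30 had Cxcl1 and 25 had Tnf, and of the 95 with Tnfaip3, 16 had Cxcl1. Nuclei with at least 3 of the 10 genes made up 0.736% of the class in the tamsulosin library (14 nuclei), 0.759% in the scopolamine library (43 nuclei) and 0.170% in the control library (8 nuclei). They were deep, with a median of 8987.5, 9647 and 18403.5 UMIs in the same order, so that joint detection went with depth.

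Pathway lists of 164 further genes, of which 163 were in the tables, were set beside these values. In acinar-like nuclei scopolamine against control put 19 of 101 tested genes past 1.5-fold higher and 8 lower, beside the background of 13% and 16.3% already given, or 17.6% and 7.96% relative to the median gene. Of 11 complement genes 6 were among those higher, including C1s1, Cfi, Cd55, Serping1 and Clu. Clu, the clusterin gene, named here after its value was seen, was at 15.9 CPM in the tamsulosin, 19.8 CPM in the scopolamine and 3.17 CPM in the control library. In T or NK-like nuclei it was at 13.8, 18.3 and 2.82 CPM in the same order. Cd55 was at 3.02 CPM in scopolamine acinar-like nuclei and 14.2 CPM in scopolamine T or NK-like nuclei, and Cfi at 2.43 and 2.03 CPM. C1s1 and Serping1, at 2.13 and 1.54 CPM in scopolamine acinar-like nuclei, had 0 UMIs in T or NK-like nuclei of that library, which allows up to 6.10 CPM. The acinar-like levels of these 5 complement genes are thus not set apart from background. None of the 3 listed Rel subunit genes and none of the 29 tested kinase and adaptor genes was higher, and the kinase and adaptor genes Chuk, Traf2 and Irak1 were lower. Tamsulosin against scopolamine put 1 of 98 higher, the chemokine gene Cxcl5, and 17 lower, among them Icam1, Cxcl10, Osmr and 4 of 10 complement genes, where the background was 2.44% higher and 8.40% lower. In the tamsulosin library Cxcl5 was at 2.99 CPM in acinar-like, 2.51 CPM in T or NK-like and 20.6 CPM in duct-like nuclei. In scopolamine acinar-like nuclei Icam1, Cxcl10 and Osmr were at 2.55, 1.48 and 4.74 CPM. In scopolamine T or NK-like nuclei they were at 26.4, 14.2 and 8.13 CPM. The acinar-like levels of these 4 genes are thus not set apart from background either. Tamsulosin against control put 8 of 94 higher and 22 lower, where the background was 10.9% higher and 26.6% lower.

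In macrophage-like nuclei 7 of 82 pathway genes were higher and 5 lower in scopolamine against control, where the background was 6.05% higher and 13.4% lower. Cd55, a complement inhibitor, was at 34.6 CPM in the scopolamine and 3.57 CPM in the control library (ratio 9.69, 3.59 to 36.7). Tamsulosin against scopolamine put 3 of 88 higher and 7 lower, where the background was 4.12% higher and 11.6% lower. Vcam1, an adhesion molecule gene and a target of NF-kB, was at 42.5 CPM in the tamsulosin, 24.6 CPM in the scopolamine and 5.35 CPM in the control library. Its ratio was 7.94 for tamsulosin against control (3.47 to 22.4), where the background was 7.38% higher and 29.9% lower. For tamsulosin against scopolamine the Vcam1 ratio was 1.73 (1.16 to 2.59). In T or NK-like nuclei scopolamine against control put 2 of 43 pathway genes higher and 4 lower. Nfkb1, the gene of the p50 precursor, was at 239 CPM in the tamsulosin, 362 CPM in the scopolamine and 215 CPM in the control library, with a ratio of 1.69 for scopolamine against control (1.28 to 2.24). Irak1, a kinase gene of interleukin 1 and Toll-like receptor signalling, was lower in that comparison, at 0.462 (0.291 to 0.724). The background of that class was 3.99% higher and 13.8% lower for scopolamine against control, 3.53% and 10.3% for tamsulosin against scopolamine, and 5.60% and 28.2% for tamsulosin against control. In the Kit and Car6 nuclei Clu was at 61.7 CPM in the scopolamine and 4.403 CPM in the control library (ratio 14.0, 6.10 to 39.6), against 18.3 and 2.82 CPM in T or NK-like nuclei, beside 2 of 54 genes higher and 11 lower, where the background was 4.46% higher and 19.7% lower.

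The fibrinogen gene Fgg, a classical acute phase gene of liver, was lower in the scopolamine than in the control library in each of the 7 classes, at 8.13 to 20.3 CPM in scopolamine and 35.4 to 69.1 CPM in control. Acinar-like nuclei were highest in both, at 20.3 CPM in the scopolamine and 69.1 CPM in the control library. In myoepithelial-like nuclei it was at 8.77 CPM in the scopolamine and 52.8 CPM in the control library (ratio 0.166, 0.0945 to 0.276). T or NK-like nuclei, which should lack it, had 8.13 CPM in the scopolamine (4 UMIs) and 36.7 CPM in the control library. In the tamsulosin library they had 28.9 CPM (23 UMIs), and acinar-like nuclei had 25.2 CPM. Levels outside the acinar-like class are thus not read as expression of their own. The acinar-like level did not stand above this background in the tamsulosin library, and few UMIs limit that comparison in the scopolamine library.

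Genes with the most similar pattern were taken from the correlation of log2(CPM + 5) over 21 sums, 7 classes in each of 3 libraries, which share library, depth and free RNA and are not independent. For Lcn2 these were Mia (r = 0.919) and Cd9 (r = 0.885), for C3 Igfbp3 (r = 0.944) and Glis2 (r = 0.931), and for Cp 1110046J04Rik (r = 0.917) and Mill2 (r = 0.894). For Cxcl1 they were Trp53inp1 (r = 0.871) and A230005M16Rik (r = 0.812), and for Tnf Gm27017 (r = 0.879) and Gm15336 (r = 0.842). For Nfkb2 they were Ect2 (r = 0.850) and 3110056K07Rik (r = 0.819), for Relb Mfap3 (r = 0.831) and Ctc1 (r = 0.819), and for Tnfaip3 Sema4a (r = 0.830) and Frmd8 (r = 0.829). Cxcl2 and Il1b had too few UMIs for this.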

How the data were processed

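The submitters deposited, for each library, a matrix of raw UMI counts per gene and nucleus, made with Cell Ranger 5.0.0 on mm10 per the submitters' processing notes. The annotation release and whether intronic reads were counted are not given in the sources used here. Nuclei with at least 500 UMIs, at least 300 genes and at most 5% mitochondrial UMIs were kept. Scrublet called under 0.5% of nuclei as doublets, so nuclei were instead dropped by rank of doublet score, 0.8% for every 1000 in the library: 1156 tamsulosin, 801 scopolamine and 414 control nuclei. Libraries shared 35 barcodes (tamsulosin and scopolamine), 30 (tamsulosin and control) and 22 (scopolamine and control).

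Nuclei were clustered in scanpy 1.11.5 (2000 variable genes without the 10 genes and the pathway lists, 30 principal components, 15 neighbours, Leiden resolution 1.0 in igraph 0.11.9). Clusters were named from marker lists, with naming thresholds set after the clusters were seen: a mean log2 enrichment of at least 2 with at least 3 markers, 0.35 with 4 markers for duct, and 3 markers at 1.25-fold for acinar. Clusters under 350 genes at 1000 UMIs were kept apart as of low complexity. UMIs were summed per class and library, and CPM, exact Poisson, conditional binomial and Clopper-Pearson 95% intervals were computed in Python 3.11.15 with numpy 2.4.6, scipy 1.17.1 and pandas 2.3.3. The script was tested on simulated data. The limit for 0 UMIs uses a floor of 3 counts.

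The 10 genes and all lists were chosen with earlier results of these data known. All 10 genes are named. Of the pathway lists, up to 3 highest and 3 lowest ratios past 1.5-fold with at least 50 UMIs were eligible per class and comparison, and genes outside that rule were chosen after their values were seen, among them the named members of list counts. For genes with at least 200 UMIs the 2 most similar genes are named. Gene coordinates are from GENCODE vM21 on mm10. No sample was left out, and 1 gene of the pathway lists is counted with its list but not reported here by itself.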

Additional observations from a re-analysis of the deposited data

How the results depend on the processing

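With 1 library per group no library could be left out and no test was made. No paired analysis was possible because each group holds 1 library. Over 61 results and 525 alternative values, 448 kept their direction and stayed within counting error of the value given (within 1.5 times, for counts of genes), 75 moved and 2 reversed. The cause of these moves was not tested. The 2 reversals, as log2 ratios, were Cxcl1 of acinar-like nuclei in tamsulosin against scopolamine, at 0.018 with nuclei thinned to 1000 UMIs, and Cp of duct-like nuclei in tamsulosin against control, at -0.045 with at least 1000 UMIs and 500 genes per nucleus.

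In the class that holds each gene, the 2 genes higher in scopolamine against control became 1 with doublets kept, with 1000 UMIs and 500 genes, or with the 10 genes and pathway genes among the variable genes, and 0 after thinning. The 2 higher in tamsulosin against scopolamine became 1 after thinning, at Leiden resolution 2.0, with those genes among the variable genes, or at 2-fold, and the 1 lower became 0 after thinning. The 2 higher in tamsulosin against control became 1 after thinning. In acinar-like nuclei, the 8 genes higher in scopolamine against control became 3 after thinning and 5 at 2-fold. The 0 higher in tamsulosin against scopolamine became 3 with 1000 UMIs and 500 genes or with low-complexity clusters added, 2 in nuclei of at least 1600 UMIs, and 1 at resolution 2.0 or over the class median, and the 4 lower became 1 after thinning. The 3 higher in tamsulosin against control became 1 after thinning and 6 over the class median or without the 50 most abundant genes. The 0 lower became 1 with doublets kept, with 1000 UMIs and 500 genes, at resolution 2.0, with those genes among the variable genes, or with low-complexity clusters added.

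As log2 ratios in myoepithelial-like nuclei, Lcn2 was 2.25 at resolution 2.0 and 2.26 with those genes among the variable genes for tamsulosin against control, and 0.35 with them for tamsulosin against scopolamine. C3 of fibroblast-like nuclei was 1.47 at resolution 2.0 for tamsulosin against scopolamine. The settings without duct-like cluster 10 and with acinar-like clusters 2, 18 and 19 alone were chosen after seeing the data. Cluster 10 joined the acinar-like class at resolution 2.0, with doublets kept and with 1000 UMIs and 500 genes. Low counts of Cxcl2, Il1b, Nfkb2 and Tnfaip3 limit what could be detected.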
